A study of Homo sapiens with 10 samples.

Results

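The genes described here are 9 that carry out class I antigen presentation: the class I heavy chains HLA-B, HLA-C and HLA-E, their shared light chain B2M, the peptide transporter subunits TAP1 and TAP2, the chaperone tapasin (TAPBP), and the immunoproteasome subunits PSMB8 and PSMB9. They were chosen by name as members of 1 pathway, with earlier results of these data known, and they are 9 of the 57736 genes counted. All 9 passed the filter on low counts, which kept 17978 genes for testing. Counts of RNA-seq reads per gene were available for 10 libraries of 3 human lung cancer cell lines, each carrying its own p53 mutation. NCI-H2087 has the V157F change, NCI-H441 has R158L, and the mutation of NCI-H2110 is R158P. Cells of each line received an siRNA against p53, made to lower the p53 transcript, or a control siRNA in its place. Each arm of NCI-H2087 and of NCI-H441 has n = 2 libraries, against 1 in each arm of NCI-H2110. Each mutation is present in 1 line and every group carries a p53 mutation, so mutation and line cannot be told apart and no line with wild-type p53 was compared. The sample titles use the word knockout where the protocol names an siRNA, and the arms are called p53 siRNA and control siRNA here.

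Class I molecules display peptides from inside the cell to CD8 T cells. Proteasomes cut cytosolic proteins, TAP1 and TAP2 pump the fragments into the endoplasmic reticulum, tapasin holds an empty class I molecule next to the transporter, and a heavy chain folded with beta-2-microglobulin and a peptide travels to the cell surface. PSMB8 and PSMB9 replace constitutive catalytic subunits of the proteasome in cells exposed to interferon, and tumours often carry low levels of several of these genes.

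The libraries held 18336672 to 25810934 counts, and CPM, the counts scaled to a common library size, are on library sizes scaled by TMM. The 6 markers of lung epithelium summed to between 3028 and 9191 CPM in all libraries, and 8 of 12 lymphocyte and myeloid markers stayed below 1 CPM in every library, with the leukocyte adaptor TYROBP at 0 in all. The fibroblast markers summed to 12.4 to 68.2 CPM and the endothelial ones to 0.217 to 60.8 CPM. In bulk RNA, fewer cells that express a gene and less RNA per cell cannot be told apart. The heavy chain genes resemble one another and vary between people, so reads may be split or lost between them, and their levels, also between lines, are uncertain for that reason. The TAP2 model overlaps a readthrough gene that held 0 to 13 counts, and that of PSMB8 overlaps an antisense gene that held 2 to 123 counts. The strand used in counting is not given in the sources used here.

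HLA-B and HLA-C, the classical heavy chains that present peptides to CD8 T cells, had higher levels with p53 siRNA in both lines with replicates and were near 0 in NCI-H2110. HLA-B measured 27.4 and 33.8 CPM in the control libraries of NCI-H2087 and 56.0 and 59.2 CPM after p53 siRNA. In NCI-H441 it measured 106 and 177 CPM with control siRNA and 178 and 342 CPM after p53 siRNA. NCI-H2110 gave 0.197 CPM with control siRNA (5 counts) and 0.260 CPM after p53 siRNA (6 counts). The arms did not overlap in either replicated line, although in NCI-H441 the higher control library and the lower p53 siRNA library nearly met. HLA-C measured 32.9 and 47.6 CPM in the NCI-H2087 controls and 62.9 and 62.3 CPM after p53 siRNA, and in NCI-H441 71.8 and 82.3 CPM against 99.0 and 168 CPM. In NCI-H2110 it had 3 counts with control siRNA and 1 count with p53 siRNA. The arms of HLA-C also did not overlap in either replicated line. Of all genes tested, 55.9% in NCI-H2087 and 34% in NCI-H441 had arms that did not overlap, in either direction.

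The fitted log2 change of HLA-B was 0.91 ± 0.32 (SE) in NCI-H2087 and 0.87 ± 0.31 in NCI-H441; that of HLA-C was 0.64 ± 0.26 and 0.79 ± 0.26. None of these 4 changes passed edgeR's quasi-likelihood test over all genes, with adjusted p = 0.109 and 0.933 for HLA-B and 0.166 and 0.933 for HLA-C. With the replicate number as a block, which uses the shared deviation of same-numbered libraries, HLA-B rose in NCI-H2087 by 0.92 ± 0.14 (adjusted p = 0.000238) and in NCI-H441 by 0.85 ± 0.14 (adjusted p = 0.0118). HLA-C rose in NCI-H2087 with the block, by 0.66 ± 0.17 (adjusted p = 0.0112), and in NCI-H441 gave 0.75 ± 0.17 (adjusted p = 0.0707). Leaving out single libraries moved the HLA-B value of NCI-H441 between 0.33 and 1.30, with 0.33 in the fit without the second-numbered p53 siRNA library and with the value of HLA-C at 0.36 in that fit. In NCI-H2087 the HLA-C value was 0.41 without the first-numbered control and 0.94 without the second-numbered one.

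Both genes lie in the class I region of chromosome 6, and their promoters are shown because the genes moved together. The RefSeq windows (GRCh38.p14, 250 bases before to 50 after the start of transcription, minus strand) are at chr6:31357130-31357429 for HLA-B and chr6:31272043-31272342 for HLA-C. Capitals mark matches to an NF-kB motif (GGGA and CCC with any 3 bases between), the X2 box (TGACGC) and the Y box (CCAAT), each searched on both strands.
HLA-B: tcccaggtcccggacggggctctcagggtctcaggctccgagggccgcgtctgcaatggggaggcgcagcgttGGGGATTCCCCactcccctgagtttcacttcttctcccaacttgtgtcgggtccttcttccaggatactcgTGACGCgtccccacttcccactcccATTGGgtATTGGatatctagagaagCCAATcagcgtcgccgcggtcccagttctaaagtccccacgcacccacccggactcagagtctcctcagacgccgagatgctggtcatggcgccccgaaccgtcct
HLA-C: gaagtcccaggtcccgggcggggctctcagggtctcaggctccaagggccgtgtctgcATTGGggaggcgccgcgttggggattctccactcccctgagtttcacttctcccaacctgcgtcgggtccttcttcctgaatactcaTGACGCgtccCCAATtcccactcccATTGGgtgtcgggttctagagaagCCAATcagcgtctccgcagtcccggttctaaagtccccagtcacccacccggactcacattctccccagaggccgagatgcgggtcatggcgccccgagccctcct
The windows share 269 of 296 aligned bases, or 90.9%. Each holds 1 X2 box and several Y boxes, the elements that, as background, the class I regulator NLRC5 and its partners use. Only HLA-B among the 8 genes with a RefSeq window holds the NF-kB letters, which occur in 7.60% of all 34796 windows.

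HLA-E, the heavy chain whose peptides come mostly from leaders of other class I chains and which is read by natural killer cells, lay closer to its controls. It measured 40.4 and 50.7 CPM in the NCI-H2087 controls and 32.9 and 45.8 CPM after p53 siRNA, which overlapped. In NCI-H441 it measured 34.6 and 31.7 CPM with control siRNA and 36.4 and 38.4 CPM after p53 siRNA, without overlap but with a small gap. The log2 changes were -0.21 ± 0.21 (adjusted p = 0.573) and 0.18 ± 0.21 (adjusted p = 0.956). NCI-H2110 held 8.82 CPM with control siRNA and 8.23 CPM after p53 siRNA (224 and 190 counts), a log2 ratio of -0.10.

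B2M, the light chain that every class I heavy chain needs, was the most abundant of the 9 in the control libraries of each line, while in NCI-H441 after p53 siRNA TAPBP was above it in 1 of the 2 libraries. Its level was 1122 and 1117 CPM in the NCI-H2087 controls and 875 and 888 CPM after p53 siRNA, lower in both and without overlap. In NCI-H441 it was 696 and 679 CPM with control siRNA and 748 and 539 CPM after p53 siRNA, which lay on either side of the controls. The log2 changes of -0.35 ± 0.17 (adjusted p = 0.251) and -0.09 ± 0.17 (adjusted p = 0.976) did not pass the test. In NCI-H2087 the light chain and the classical heavy chains therefore had values on opposite sides of their controls. NCI-H2110 gave 181 CPM with control siRNA and 193 CPM after p53 siRNA.

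**Figure D1:**
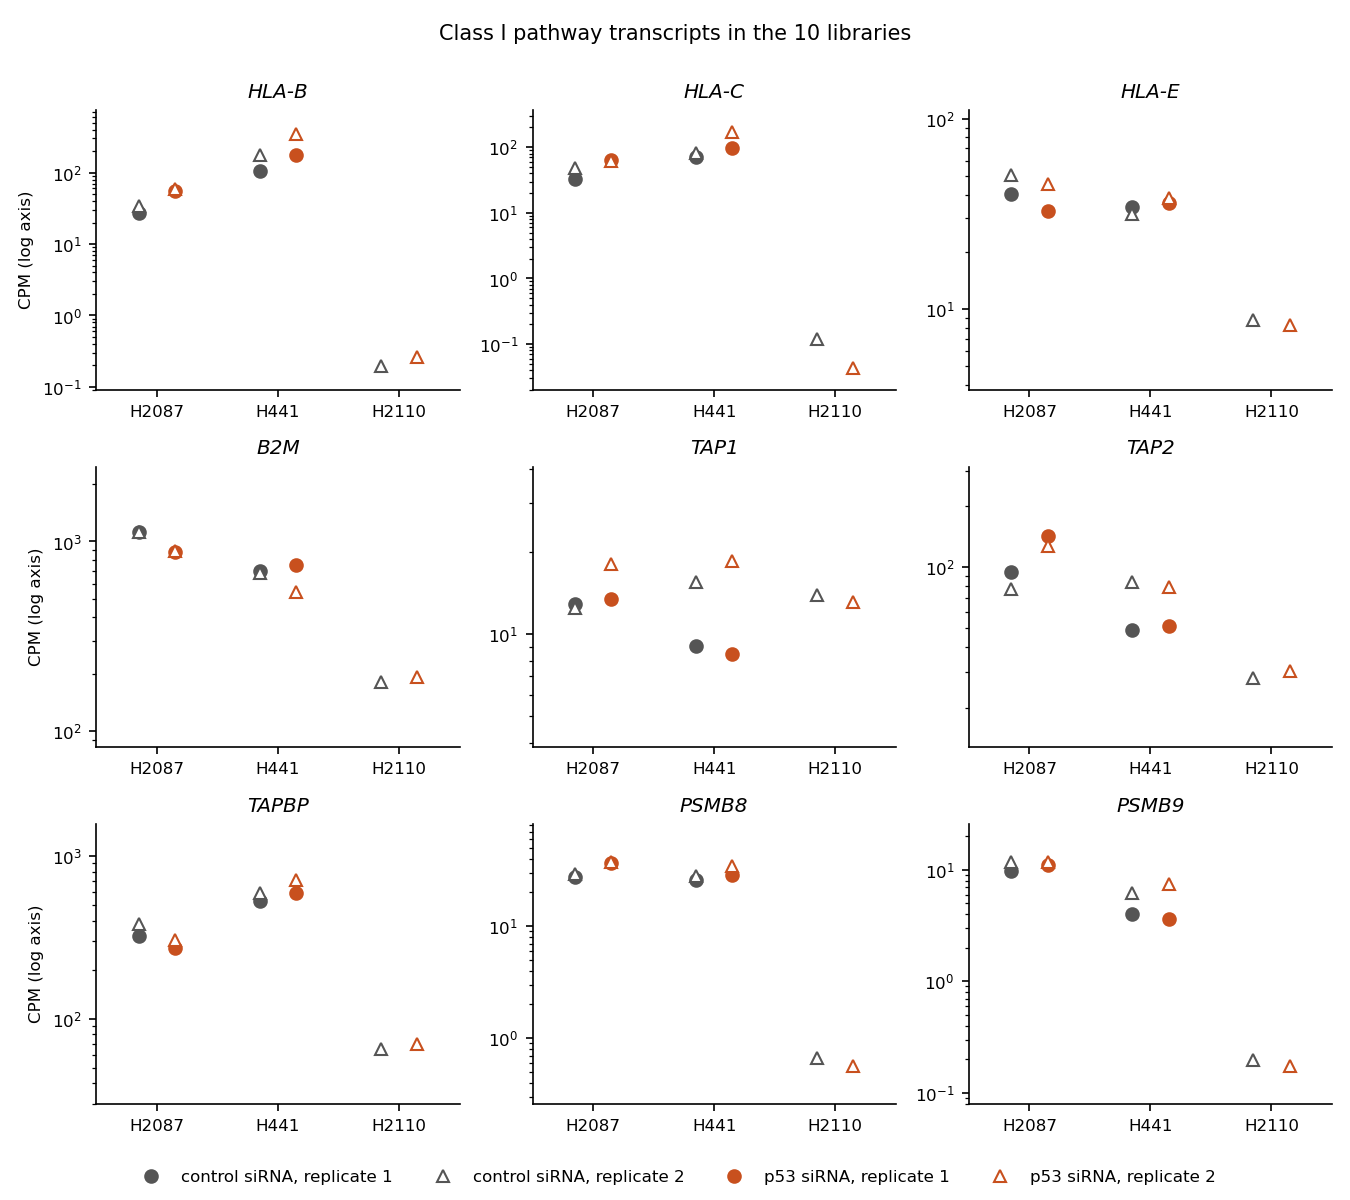
Level of each of the 9 genes in CPM (log axis, scaled per gene) in each of the 10 libraries, by line. Grey marks control siRNA and orange p53 siRNA, circles are replicate 1 and open triangles replicate 2. HLA-B, HLA-C, PSMB8 and PSMB9 lie far lower in NCI-H2110, while TAP1 lies at a like level in all 3 lines.

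TAP2, 1 of the subunits of the peptide pump, was higher with p53 siRNA in NCI-H2087 and overlapped in NCI-H441. It measured 94.1 and 77.7 CPM in the NCI-H2087 controls and 142 and 127 CPM after p53 siRNA. In NCI-H441 it measured 48.8 and 84.0 CPM with control siRNA and 50.9 and 79.2 CPM after p53 siRNA. The change in NCI-H2087 was 0.65 ± 0.28 (log2, adjusted p = 0.182), and with the replicate block it rose by 0.65 ± 0.14 (adjusted p = 0.00248). In NCI-H441 the value was -0.03 ± 0.28 (adjusted p = 1). The difference between the lines was 0.68 ± 0.39 (adjusted p = 0.503), and with the block 0.67 ± 0.19, which passed (adjusted p = 0.0423).

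TAP1, its partner in the pump, differed little between arms. It measured 12.9 and 12.4 CPM in the NCI-H2087 controls and 13.4 and 18.04 CPM after p53 siRNA, higher in both but by little in the first pair. NCI-H441 gave 9.06 and 15.4 CPM with control siRNA and 8.48 and 18.5 CPM after p53 siRNA, so the replicates differed more than the arms. NCI-H2110 gave 13.9 and 13.1 CPM. The log2 changes were 0.31 ± 0.37 (adjusted p = 0.65) in NCI-H2087 and 0.14 ± 0.37 in NCI-H441. The changes of TAP1 and TAP2 in NCI-H2087 overlapped within their errors, and a test of one gene against the other was not made.

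TAPBP, the tapasin that bridges heavy chain and transporter, measured 322 and 383 CPM in the NCI-H2087 controls and 271 and 306 CPM after p53 siRNA. In NCI-H441 it measured 530 and 590 CPM with control siRNA and 589 and 713 CPM after p53 siRNA. It was lower without overlap in NCI-H2087 and overlapped in NCI-H441, where the lower p53 siRNA library met the higher control. The log2 values were -0.29 ± 0.17 (adjusted p = 0.325) and 0.22 ± 0.17 (adjusted p = 0.933), and their difference of -0.51 ± 0.24 did not pass (adjusted p = 0.404, and 0.0984 with the block). On leaving out 1 library the value ran from -0.40 to -0.14 in NCI-H2087, with -0.14 without the second-numbered control, and from 0.07 to 0.35 in NCI-H441, with 0.07 without the second-numbered p53 siRNA library.

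PSMB8, the immunoproteasome subunit that takes the place of PSMB5, measured 27.6 and 29.02 CPM in the NCI-H2087 controls and 36.9 and 37.2 CPM after p53 siRNA. In NCI-H441 it measured 26.1 and 28.1 CPM with control siRNA and 28.8 and 34.7 CPM after p53 siRNA. The arms did not overlap in either line, but the changes of 0.39 ± 0.18 (adjusted p = 0.208, and 0.0813 with the block) and 0.23 ± 0.18 (adjusted p = 0.933) did not pass. NCI-H2110 held 17 and 13 counts, or 0.669 and 0.563 CPM. PSMB9, which takes the place of PSMB6, measured 9.80 and 11.7 CPM in the NCI-H2087 controls and 11.0 and 11.7 CPM after p53 siRNA. In NCI-H441 it measured 4.03 and 6.14 CPM against 3.65 and 7.53 CPM, so its arms overlapped in both lines, with changes of 0.08 ± 0.34 and 0.13 ± 0.35. NCI-H2110 held 5 counts with control siRNA and 4 counts with p53 siRNA.

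Set against their constitutive counterparts per length of gene, the immunoproteasome subunits were a minor part. PSMB8 stood at 14.9% and 18.5% of PSMB5 in the NCI-H2087 controls and at 24.9% and 25.2% in the NCI-H441 controls. With p53 siRNA it stood at 17.96% and 21.2% in NCI-H2087, which overlapped the controls, and at 31.8% and 32.2% in NCI-H441, which did not. In NCI-H2110 it stood at 0.398% and 0.400%. PSMB9 stood at 3.12% to 8.58% of PSMB6 in the replicated lines and at 0.161% and 0.187% in NCI-H2110. PSMB5 and PSMB6 themselves were at 99.1 and 57.5 CPM in the NCI-H2110 control, within the range of the other lines for PSMB5 and just below it for PSMB6, so the low ratios there came with low immunoproteasome counts. PSMB10, the remaining immunoproteasome subunit, stood at 0.551% to 11.9% of PSMB7, again lowest in NCI-H2110.

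Over the 9 genes, 0 passed edgeR's test in NCI-H2087, as did 0 in NCI-H441. The share of all genes called was 8.68% in NCI-H2087 and 0.00556%, or 1 gene, in NCI-H441. At an unadjusted p below 0.05, 3 of the 9 were counted in NCI-H2087 and 2 in NCI-H441. Over all 17978 genes these counts were 4553 and 796. DESeq2 called 1 and 0, and limma-voom 0 and 0. Over all genes DESeq2 called 1295 rises and 838 falls in NCI-H2087, and 20 rises and 10 falls in NCI-H441. Limma-voom called 903 rises and 710 falls in NCI-H2087, and 0 rises and 1 fall in NCI-H441. With the replicate block, 3 of 9 were called in NCI-H2087 (HLA-B, HLA-C and TAP2), where 25.4% of all genes were, and 1 of 9 in NCI-H441 (HLA-B), where 0.417% were. In NCI-H2087 the arms did not overlap for 7 of 9 genes, 5 of them higher, against 55.9% of all genes, and in NCI-H441 for 4 of 9, all higher, against 34% of all genes. The median log2 change of the 9 was 0.31 in NCI-H2087 beside -0.03 over all genes tested, and 0.18 in NCI-H441 beside 0.01. Scaling by library totals in place of TMM moved the NCI-H2087 medians together, to 0.14 and -0.21, and turned the sign of PSMB9 there.

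**Figure D2:**
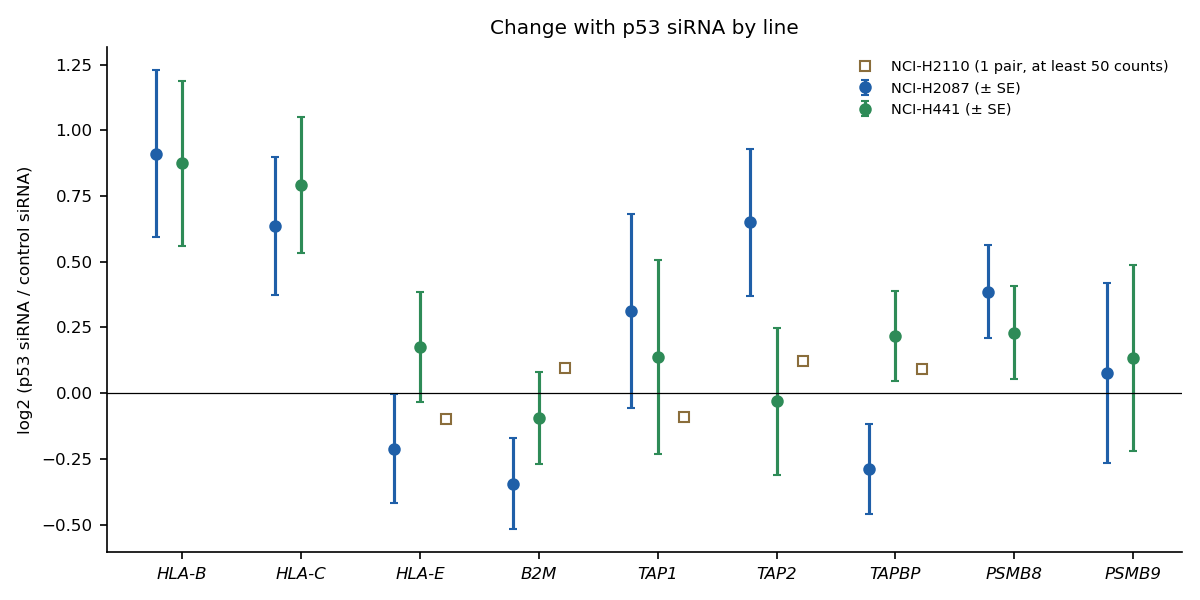
Log2 ratio of p53 siRNA to control siRNA for the 9 genes in NCI-H2087 and NCI-H441 (fitted values ± SE, n = 2 libraries per arm) and in NCI-H2110 (ratio of CPM in 1 pair of libraries, for the 5 genes with at least 50 counts). HLA-B and HLA-C lie above 0 in both replicated lines, and TAP2 lies at 0.65 in NCI-H2087 and at -0.03 in NCI-H441.

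Whether the lines responded differently was tested as the difference between their changes. For the 9 genes 0 differences passed in edgeR, beside 0.412% of all genes. At an unadjusted p below 0.05 there were 0 of the 9, beside 2380 of the 17978 genes. DESeq2 and limma-voom also called 0 of the 9. With the block 1 passed, that of TAP2 given above, beside 8.92% of all genes. For HLA-B the difference was 0.04 ± 0.44 (adjusted p = 1), and it turned negative with library totals (-0.09), so the lines had like values with a wide error. A change common to the 3 lines was fitted with line as a term. HLA-B gave 0.87 ± 0.20 (adjusted p = 0.0978) and HLA-C 0.68 ± 0.19 (adjusted p = 0.139), so 0 of 9 were called beside 0.395% of all genes. An unadjusted p below 0.05 was found for 2 of the 9, beside 2553 of the 17978 genes. With the block HLA-B passed (adjusted p = 0.0206), again beside 0.395% of all genes, and DESeq2 called both HLA-B and HLA-C. Leaving out the first-numbered p53 siRNA library of NCI-H441 also let HLA-B pass, at an adjusted p of 0.031.

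In NCI-H2110 the 5 genes with at least 50 counts in either library had log2 ratios of -0.10 (HLA-E), 0.10 (B2M), -0.09 (TAP1), 0.12 (TAP2) and 0.09 (TAPBP). These lie well inside the range of all 12385 genes measured so, whose median was -0.03 and whose 5th and 95th percentiles were -0.55 and 0.58. With 1 library per arm there is no test. HLA-B, HLA-C, PSMB8 and PSMB9 held too few counts there for a ratio.

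More of the 9 genes passed between lines than between arms, and the same held over all genes. Between arms 8.68% of all genes were called in NCI-H2087 and 0.00556% in NCI-H441. Between the control libraries of NCI-H2087 and NCI-H441, 5 of 9 genes passed, beside 42.1% of all genes (5 of 9 and 47.2% with the block). HLA-B was lower in NCI-H2087 by a log2 value of -2.21 ± 0.33 (adjusted p = 0.000565), HLA-C by -0.94 ± 0.26 (adjusted p = 0.0171) and TAPBP by -0.67 ± 0.17 (adjusted p = 0.0108). B2M was higher in NCI-H2087 by 0.70 ± 0.17 (adjusted p = 0.0094) and PSMB9 by 1.08 ± 0.35 (adjusted p = 0.0332). HLA-E (0.46, adjusted p = 0.103), TAP2 (0.37, adjusted p = 0.317), TAP1 (0.05) and PSMB8 (0.07, adjusted p = 0.801) did not pass. The call of HLA-B held whichever control library was left out. That of B2M was lost without any of the 4, at adjusted p from 0.052 to 0.0567, that of PSMB9 without either NCI-H2087 control or the first-numbered NCI-H441 control, and those of HLA-C and TAPBP without the first-numbered NCI-H2087 control or the second-numbered NCI-H441 control.

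**Figure D3:**
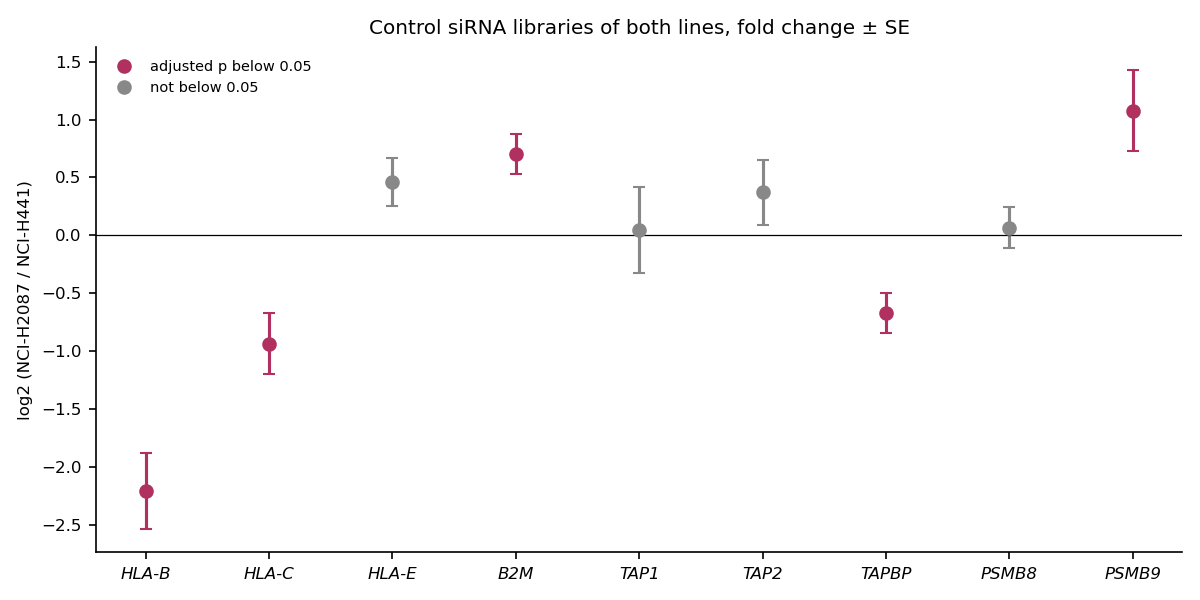
Log2 ratio of NCI-H2087 to NCI-H441 in the control siRNA libraries (fitted values ± SE, n = 2 libraries per line), coloured by whether the adjusted p lay below 0.05. HLA-B, HLA-C and TAPBP lie below 0, and B2M and PSMB9 above 0.

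NCI-H2110 stood apart. With control siRNA, HLA-B was 158.1-fold (95% counting interval 67.6 to 488) higher in NCI-H2087 and 734-fold (315 to 2262) higher in NCI-H441 than in NCI-H2110. For HLA-C the ratios were 350 (120 to 1701) and 656 (224 to 3181), for PSMB8 42.5 (26.4 to 73.2) and 40.6 (25.3 to 69.9), and for PSMB9 55.3 (23.6 to 171) and 26.2 (11.1 to 81.5). These intervals cover counting error only, since the line has 1 control library, and for the heavy chains the loss of reads to variant sequence was not tested. TAPBP was 5.47-fold and 8.62-fold higher in the other lines, B2M 6.20-fold and 3.80-fold, HLA-E 5.26-fold and 3.74-fold, and TAP2 3.03-fold and 2.42-fold. TAP1 was at 0.907 and 0.896 of its NCI-H2110 level, the 1 gene of the 9 that was not lower there. The pattern therefore split the pathway: HLA-B, HLA-C, PSMB8 and PSMB9 were near 0, light chain, HLA-E, tapasin and TAP2 were reduced, and TAP1 was not.

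The NCI-H2110 control lay over 10-fold below every other control library for 4 of the 9 genes, beside 4.41% of the 11953 genes with at least 1 CPM in those libraries, a threshold chosen after the values were seen. The same held for 5 of 10 other class I and class I-like genes, among them HLA-F, ULBP2, ULBP3 and FCGRT, and for 10 of 34 interferon-stimulated genes, among them IFIT3, OAS2, IFITM1 and UBE2L6. It held for 0 of 15 genes of peptide loading and trimming, 0 of 6 of the immunoproteasome and activator list and 0 of 19 regulators. NLRC5, the activator of class I promoters, measured 1.30 CPM in that library, 9.02 and 10.6 CPM in NCI-H2087 and 3.86 and 5.58 CPM in NCI-H441. Alveolar and club cell markers summed to 56.7 CPM in the NCI-H2110 control, 954 and 1040 CPM in the NCI-H2087 controls and 1489 and 643 CPM in the NCI-H441 controls. The epithelial markers summed to 3078 CPM in the NCI-H2110 control and 3784 to 4983 CPM in the other controls. The part of these differences in the class I levels was not tested.

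TAP1 and PSMB9 are transcribed away from each other from start sites 488 bases apart, and are shown for that reason, together with TAP2. The windows are chr6:32853655-32853954 (TAP1, minus strand), chr6:32853942-32854241 (PSMB9, plus strand) and chr6:32838690-32838989 (TAP2, minus strand). Capitals mark the interferon-stimulated response element (ISRE, GAAA and GAAA with any 2 bases between), the X2 box and the Y box, on either strand.
TAP1: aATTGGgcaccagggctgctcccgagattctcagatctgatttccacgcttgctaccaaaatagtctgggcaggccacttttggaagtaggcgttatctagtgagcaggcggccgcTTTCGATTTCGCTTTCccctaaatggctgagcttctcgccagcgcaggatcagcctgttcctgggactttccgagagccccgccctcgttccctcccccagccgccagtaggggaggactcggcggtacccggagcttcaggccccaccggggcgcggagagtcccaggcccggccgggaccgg
PSMB9: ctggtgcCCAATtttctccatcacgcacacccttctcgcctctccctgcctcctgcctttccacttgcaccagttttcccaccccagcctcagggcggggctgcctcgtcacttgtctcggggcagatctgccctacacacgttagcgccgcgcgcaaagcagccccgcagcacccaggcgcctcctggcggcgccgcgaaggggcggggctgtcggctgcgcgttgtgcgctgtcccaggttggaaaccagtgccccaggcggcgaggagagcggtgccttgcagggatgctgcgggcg
TAP2: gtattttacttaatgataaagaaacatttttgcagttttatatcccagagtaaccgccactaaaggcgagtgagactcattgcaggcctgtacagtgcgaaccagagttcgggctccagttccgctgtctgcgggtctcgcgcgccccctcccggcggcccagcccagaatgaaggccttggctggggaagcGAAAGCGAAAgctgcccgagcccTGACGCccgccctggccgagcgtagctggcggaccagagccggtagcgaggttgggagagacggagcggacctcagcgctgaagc
The windows of TAP1 and PSMB9 overlap by a few bases at their far ends, and the single Y box of each is the same one. In NCI-H2110 TAP1 stood at 13.9 CPM and PSMB9 at 0.197 CPM. Of the 8 genes with a window, 5 hold the ISRE letters (B2M, TAP1, TAP2, TAPBP and PSMB8), beside 3.57% of all windows. The X2 box is in 3 (HLA-B, HLA-C and TAP2; 9.10% of all windows), the Y box in 5 (34.6%), a GAS element (TTCNNNGAA) in TAP1 and PSMB8 (7.67%) and the E2F letters (TTTCCCGC) in 0 of 8 (1.63%). TAP1 and PSMB8 have a second start site each, which is counted here. A match describes the letters only.

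Levels can be compared between genes per kilobase of exon (RPKM). In the NCI-H2087 controls B2M led at 184 ± 0.591 (SD, n = 2), followed by TAPBP at 69.6 ± 8.56. HLA-C (16.05 ± 4.14), HLA-E (15.3 ± 2.45), TAP2 (13.4 ± 1.81), HLA-B (10.04 ± 1.48) and PSMB8 (9.45 ± 0.327) came next, each within the spread of its neighbour except TAP2 and HLA-B, which were farther apart than either SD. PSMB9 (3.50 ± 0.435) and TAP1 (2.64 ± 0.0665) were lowest. In the NCI-H441 controls B2M (113 ± 1.99) and TAPBP (111 ± 8.32) did not differ beyond their spread, HLA-B (46.5 ± 16.5) and HLA-C (30.7 ± 2.95) came next with overlapping spreads, and HLA-E (11.1), TAP2 (10.4), PSMB8 (9.04), TAP1 (2.55) and PSMB9 (1.66) followed. In NCI-H2110 the order was B2M (29.7), TAPBP (12.9), TAP2 (4.37), HLA-E (2.96) and TAP1 (2.90), with the other 4 genes at 0.047 to 0.223. Dividing by the longest transcript in place of all exons put HLA-B of NCI-H2087 at 19.8, above HLA-E and TAP2, and in the NCI-H441 controls it put B2M at 286 and TAPBP at 149, so the order of the middle genes and the gap between the leading pair depend on the length used.

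In NCI-H441 the libraries numbered 2 were above those numbered 1 for several of the genes, by as much as the siRNA arms differed. For HLA-B the log2 ratio of replicate 2 to 1 was 0.74 in the controls and 0.94 with p53 siRNA, and its ratio of p53 siRNA to control was 0.75 in the first pair and 0.95 in the second. For TAP1 the replicate ratios were 0.77 and 1.12, for TAP2 0.78 and 0.64, and for PSMB9 0.61 and 1.05. HLA-C (0.20 and 0.76), TAPBP (0.15 and 0.27) and PSMB8 (0.11 and 0.27) differed less, and B2M (-0.04 and -0.47) went the other way. NLRC5 had replicate ratios of 0.53 and 0.93, and CD74, the class II invariant chain, 1.07 and 1.42. The alveolar and club markers went opposite, from 1489 to 643 CPM in the controls and from 1573 to 709 CPM after p53 siRNA. What these libraries shared by number was not stated, and its part in the class I levels was not tested.

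**Figure D4:**
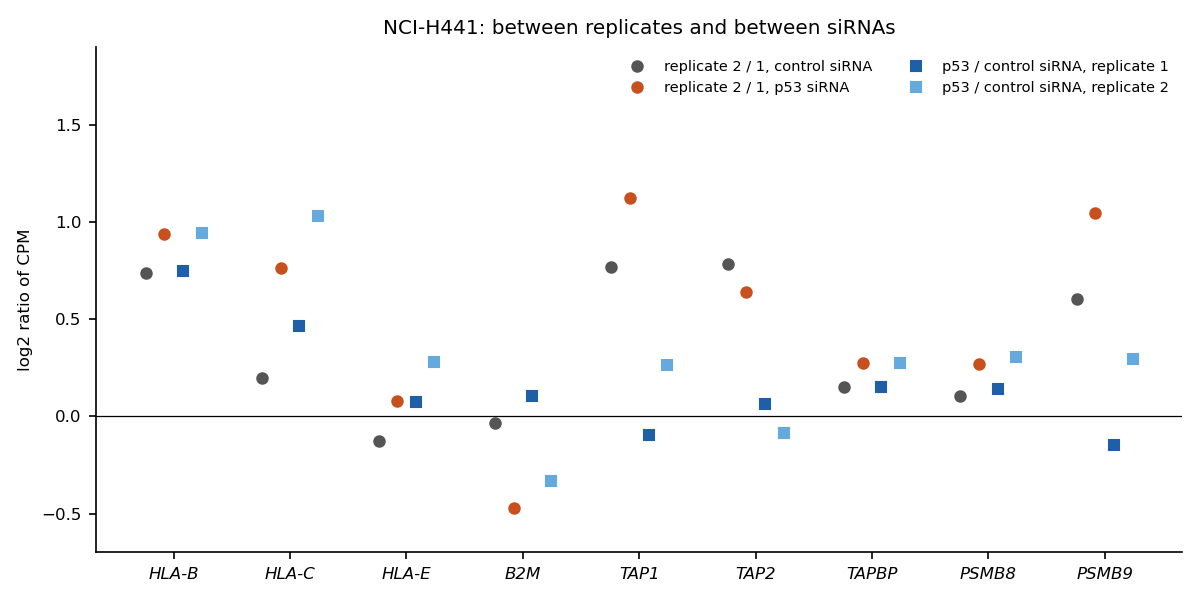
Log2 ratios of CPM in NCI-H441 for the 9 genes: replicate 2 over replicate 1 in each arm (circles) and p53 siRNA over control siRNA in each pair (squares). For TAP1, TAP2 and PSMB9 the circles lie near or above 0.6 while the squares lie near 0, and for HLA-B all 4 values lie between 0.74 and 0.95.

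The regulators of class I transcription were read from a list of 19 genes. In NCI-H2087, 0 rose and 3 fell, where over all 17978 genes 896 rose and 664 fell (8.68% called), and the list median was 0.03. The 3 were the interferon-regulated activator IRF1 (-0.98, adjusted p = 0.0317), STAT2 of the type I interferon pathway (-0.80, adjusted p = 0.0432) and the X-box protein RFXAP (-1.66, adjusted p = 0.0299). NLRC5 had a value of 0.72 ± 0.34 (adjusted p = 0.22) and rose with the block (0.71, adjusted p = 0.0124), when 2 rose and 3 fell. In NCI-H441 NLRC5 had a similar value of 0.77 ± 0.35 (adjusted p = 0.933) and 0 of the 19 were called. In the fits without 1 of the NCI-H2087 libraries none of the 3 falls was called. Across the controls NLRC5 was higher in NCI-H2087 than in NCI-H441 (1.05, adjusted p = 0.0344), while HLA-B and HLA-C were lower there.

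Many interferon-stimulated genes fell in NCI-H2087, on the other side of their controls from HLA-B and HLA-C. Of 40 tested, 16 fell and 2 rose, with a median of -0.68 beside -0.03 for all genes (24 fell and 4 rose with the block). Over all 17978 genes 664 fell and 896 rose, and with the block 2273 fell and 2298 rose. Leaving out 1 library left 5 (second-numbered control), 8 (first-numbered control), 7 (second-numbered p53 siRNA library) or 14 falls. The antiviral genes OAS2 (-3.15, adjusted p = 0.00139), MX1 (-2.32, adjusted p = 0.00415), IFIT1 (-1.66, adjusted p = 0.00381) and XAF1 (-3.96, adjusted p = 0.0185) were among those that fell. The 2 that rose were UBE2L6, the conjugating enzyme for ISG15 (0.73, adjusted p = 0.0399), and the guanylate-binding protein GBP3 (1.11, adjusted p = 0.0104). In NCI-H441 0 of 40 were called with or without the block, with a median of 0.07. At an unadjusted p below 0.05 there were 7 (15 with the block), beside 796 of all 17978 genes (2394 with the block). The interferon receptor and kinase list had 1 rise of 11 in NCI-H2087, the feedback inhibitor SOCS3 (1.83, adjusted p = 0.0141), and 3 with the block, which added IFNGR2 and JAK2. The call of SOCS3 was lost in 3 of the 4 fits without 1 NCI-H2087 library.

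Genes of the machinery around the 9 were called in both directions in NCI-H2087, where 8.68% of all genes were called and 25.4% with the block. Among 15 genes of peptide loading and trimming, 1 rose, the export factor BCAP31 (0.67, adjusted p = 0.0499), and 1 fell, the tapasin-related TAPBPL (-1.54, adjusted p = 0.0107), with a list median of 0.09. The block added the chaperone CANX above and the trimming peptidase ERAP2 and SEC61A1 below. Of 13 other class I and class I-like genes, 1 rose, the endothelial protein C receptor PROCR (1.15, adjusted p = 0.0465), and 1 fell, the NKG2D ligand ULBP1 (-1.47, adjusted p = 0.018), with a median of -0.46 (2 and 4 with the block). Library totals gave 0 rises and 3 falls in this list, and 0 rises and 2 falls in peptide loading, and without either NCI-H2087 control neither list had a call. The immunoproteasome and activator list (6 genes) and the constitutive counterparts (3 genes) had 0 calls in edgeR. At an unadjusted p below 0.05 they had 2 and 1, beside 4553 of all 17978 genes. With the block 2 and 1 rose, the assembly factor POMP and activator PSME3, and PSMB7. In NCI-H441 none of these lists had a call, with or without the block.

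Beside these changes, lung epithelial markers rose in NCI-H2087 for 5 of 6 genes, from summed levels of 4119 and 3784 CPM to 9183 and 9191 CPM (2 of 6 called without the second-numbered control, 6 with the block). Alveolar and club markers fell for 2 of 5 tested, from 954 and 1040 CPM to 383 and 220 CPM (5 of 5 with the block, and 1 without either control or without the second-numbered p53 siRNA library). In NCI-H441 the epithelial sum went from 4983 and 4901 CPM to 6527 and 8058 CPM with 0 calls, and 2 of 6 rose with the block, the fit in which HLA-B was called there (DESeq2 called 1, and 2 were called without the filter on low counts). Of all genes, 8.68% were called in NCI-H2087 (25.4% with the block) and 0.00556% in NCI-H441 (0.417% with the block). The lymphocyte and myeloid markers summed to 2.01 to 5.77 CPM in all libraries of these lines. Their part in the class I values was not tested.

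**Figure D5:**
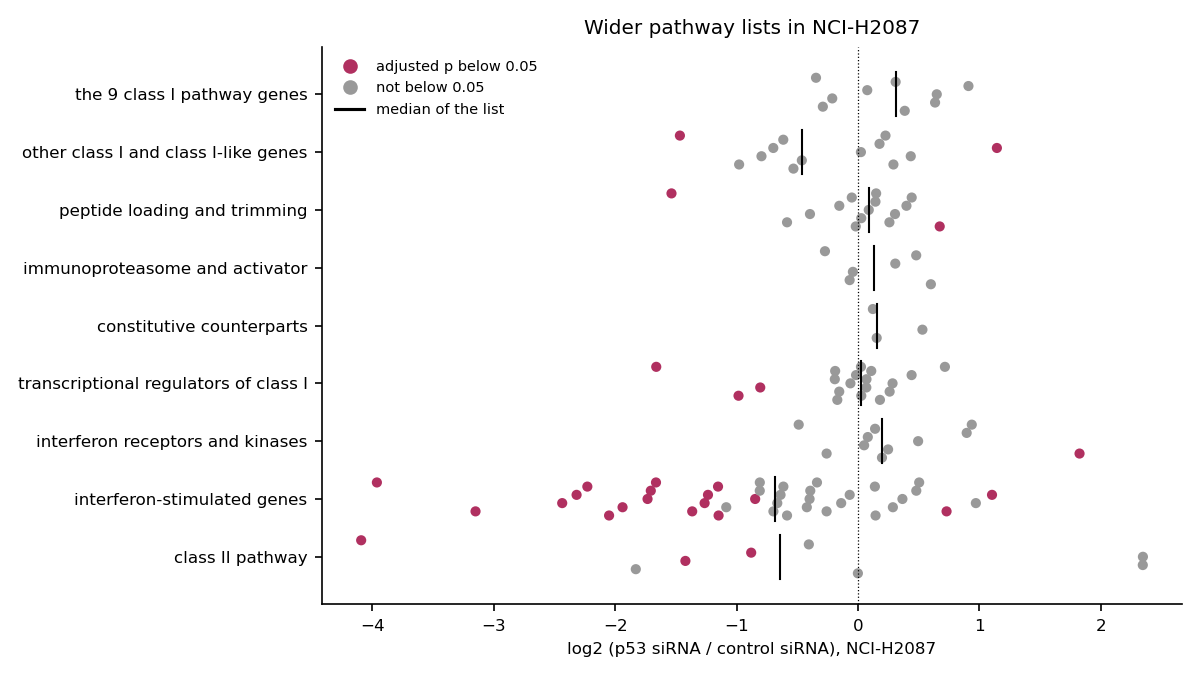
Log2 ratio of p53 siRNA to control siRNA in NCI-H2087 for each tested gene of the 9 class I pathway genes and of the wider lists, with called genes in red and the list median as a bar. The 9 genes have a median of 0.31 and no called gene, and 16 of 40 interferon-stimulated genes are called below 0.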

How the data were processed

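Per the submitters' processing notes, the tools were Bowtie2 and RSEM 1.2.12 with hg19, in no stated order. Per the labels, RNA came from an RNeasy Plus kit and libraries from a Lexogen mRNA kit. The deposited table holds whole-number counts per Ensembl gene, not normalized; whether they are rounded RSEM estimates is not stated. Library totals were 18336672 to 25810934 counts. Symbols were found for 51959 of 57736 IDs, and 342 more from GENCODE 29, whose exons gave lengths for RPKM.

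In R 4.3.3, edgeR 4.0.16 kept 17978 genes by filterByExpr, scaled by TMM and fitted a quasi-likelihood model with 1 mean per line and siRNA to all 10 libraries (4 residual degrees of freedom), or line plus siRNA for the common change. Two-sided p-values received a Benjamini-Hochberg adjustment over the 17978 genes, and calls needed an adjusted p below 0.05. The biological coefficient of variation was 19.8%. SEs were derived from the F statistic. The script was tested on simulated data. NCI-H2110 ratios used a prior count of 2.

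Labels do not say that replicates were separate cultures, so the p-values cover only the spread among these libraries, which may be technical. Differences between replicates correlated across arms over 9332 genes (r = 0.541 in NCI-H2087 and 0.603 in NCI-H441). A second fit took the replicate number as a block (2 residual degrees of freedom), and its values are given where it changes a call or moves a count. Replicates were not copies (chi-square per gene 21.3 to 63.6). Alternatives were DESeq2 1.42.0, limma-voom (limma 3.58.1), library totals, no filter, 1 line alone, single libraries left out, a prior count of 0.5 and transcript length.

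The 9 genes and the wider lists were chosen with earlier results of these data known. All 9 are named with every library. Wider lists are given by counts and medians, with values for genes called in NCI-H2087, and others as examples chosen after their values were seen. Promoters are from RefSeq (GRCh38.p14), found for 8 of the 9. The targeted gene is not reported here.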

Additional observations from a re-analysis of the deposited data

Results flagged for a closer look

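The changes of 2 interferon-stimulated genes differed between NCI-H2087 and NCI-H441, and those of 3 more had opposite directions. For OAS2 and MX1 the test of the difference passed, with log2 differences of -3.33 ± 0.44 (edgeR, adjusted p = 0.0258) and -2.83 ± 0.49 (adjusted p = 0.0465). MX1 went from 18.3 and 12.7 CPM to 3.89 and 2.32 CPM in NCI-H2087 and from 1.97 and 1.44 CPM to 2.42 and 2.45 CPM in NCI-H441. For OAS1 (-1.52 ± 0.27, adjusted p = 0.0558), MX2 (-2.24 ± 0.43, adjusted p = 0.074) and LGALS3BP (-1.20 ± 0.24, adjusted p = 0.0799) every library moved down in NCI-H2087 and up in NCI-H441, but the difference did not pass. These 3 genes were named for that pattern, and its share over all genes is not given here. Arms that did not overlap, in either direction, were common over all genes, at 55.9% in NCI-H2087 and 34% in NCI-H441. OAS2 and MX1 were the only 2 of the 40 interferon-stimulated genes whose difference passed, beside 0.412% of all genes. With the replicate block 1 difference passed above 0 and 18 below it, beside 8.92% of all genes. Among the 9 class I pathway genes 0 differences passed, and 1 with the block.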

How the results depend on the processing

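With the replicate block, which pairs libraries of the same number, calls among the 9 genes went from 0 to 3 in NCI-H2087, to 1 in NCI-H441, to 1 for the difference between lines and to 1 for the common change. Over all genes they went from 1560 to 4571, from 1 to 75 and from 74 to 1604, and stayed at 71 for the common change. Without the filter on low counts 3, 1 and 2 of the 9 were called in NCI-H2087, NCI-H441 and the common change, and 2700, 69, 810 (difference) and 1123 (common) of all genes. DESeq2 called 1 of the 9 in NCI-H2087 and 2 in the common change, and 30 (NCI-H441), 476 (difference) and 609 (common) of all genes. In NCI-H2087 DESeq2 called 1295 rises and 838 falls over all genes. Limma-voom called 31 differences, and fits of 1 line alone called 1 of the 9 in NCI-H2087 and 0 of all genes in NCI-H441. The fit of NCI-H2087 alone called 967 rises and 606 falls over the 15193 genes it tested.

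With 1 control or p53 siRNA library left out, the lone library was assumed to vary like the other groups. All-gene calls were then 177 to 1103 in NCI-H2087 (177 and 358 without the second- and first-numbered control, 641 without the second-numbered p53 siRNA library), 0 to 2 in NCI-H441, 0 to 92 for the difference, 2 to 117 for the common change and 4713 to 5366 between controls (7568 with all). Of the 9, 0 to 1 were called for the common change and 1 to 3 between controls (5 with all). Log2 values that turned sign on leaving out a library were HLA-E (-0.47 to 0.0075) and PSMB9 (-0.032 to 0.22) in NCI-H2087. In NCI-H441 they were B2M (-0.35 to 0.12), TAP1 (-0.53 to 0.59), TAP2 (-0.39 to 0.43) and PSMB9 (-0.48 to 0.56). For the difference they were HLA-B (-0.38 to 0.58), HLA-C (-0.49 to 0.27), B2M (-0.47 to 0.0026), TAP1 (-0.28 to 0.84) and PSMB9 (-0.49 to 0.56). For the common change they were HLA-E (-0.080 to 0.064), TAP1 (-0.030 to 0.31), TAPBP (-0.089 to 0.073) and PSMB9 (-0.13 to 0.24), and between controls TAP1 (-0.31 to 0.50) and PSMB8 (-0.0076 to 0.14). None of these had a call. Library totals turned PSMB9 in NCI-H2087 (-0.10) and in the common change (-0.019) and the difference of HLA-B (-0.091), limma-voom that of PSMB9 (0.012), and DESeq2 TAPBP in the common change (0.0027). The causes were not tested. With 2 libraries per arm, a miss at the threshold does not show that a gene did not change, and the NCI-H2110 values of HLA-B and HLA-C rest on 1 to 6 counts.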

Other observations

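Class II molecules present peptides to CD4 T cells. CD74, their invariant chain, measured 31.6 and 66.5 CPM in the NCI-H441 controls and 41.2 and 110 CPM with p53 siRNA, 0 to 0.258 CPM in NCI-H2087 and 0 in both NCI-H2110 libraries. HLA-DMA, the peptide editor, fell in NCI-H2087 from 8.40 and 10.7 CPM to 4.02 and 3.13 CPM (log2 -1.42 ± 0.27, edgeR, adjusted p = 0.0144), as did the protease CTSS, from 46.7 and 50.7 CPM to 26.1 and 26.8 CPM (adjusted p = 0.0185). HLA-DMB was also called, from levels below 1 CPM. These were the 3 called of 8 class II genes tested, beside 8.68% of all genes (3 and 25.4% with the block). Most of these calls were lost on leaving out 1 NCI-H2087 library, and the list median of -0.64 then ran from -0.90 to -0.40. HLA-G, a non-classical class I chain, measured 23.2 and 16.5 CPM in the NCI-H2087 controls and below 1 CPM in the other lines.

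The genes whose levels over the 10 libraries were most like the scaled mean of the 9, among 11100 genes with a mean of at least 5 CPM, were DNAJB5, TMEM171, PFDN1, TOLLIP and BAHD1, with Pearson r of 0.989 to 0.992. These correlations rest largely on the low NCI-H2110 libraries. After each line's mean was removed the 5 nearest were GRINA, DHX34, ZNF584, ENSG00000182500 and PSMF1, with r of 0.967 to 0.976. The points share libraries and scaling, and the values are descriptions.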
